A study of Mus musculus with 8 samples.

Results

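The enzymes and transporters of central carbon metabolism were followed through an RNA-seq experiment, labelled polyA, on mouse CD4 T cells. The set was given as a list of gene symbols covering glycolysis, the pentose phosphate pathway and the tricarboxylic acid (TCA) cycle. It holds 44 genes of the 25124 in the deposited table, and all 44 were found and passed the filter on low counts, as 19146 genes did in all. By role, 2 members import glucose, 9 belong to upper glycolysis, 5 to lower glycolysis, 3 to lactate formation and export, 6 to the pentose phosphate pathway, 4 to the pyruvate dehydrogenase step and 11 to the TCA cycle. The remaining 4 work beside the cycle, in the cytosol or in malate handling.

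Spleen cells came from mice carrying a pair of fluorescent reporters, GFP for KLF2 and RFP for FOXP3. All groups were sorted as FOXP3-negative, CD44hi CD4 T cells, that is, antigen-experienced cells without the marker of regulatory T cells, and divided by the reporter into KLF2+ and KLF2- cells. KLF2 is a transcription factor that is high in resting T cells and falls on activation, so the sort separates cells by reporter level and deletes no gene. Each population was cultured for 48 h without stimulation or with anti-CD3 at 2.5 µg/mL and anti-CD28 at 1.25 µg/mL, which engage the T cell receptor and its co-receptor. Each of the 4 groups has 2 libraries, numbered 1 and 2 for KLF2+ and 3 and 4 for KLF2- cells in the labels. The labels do not give the number, age or sex of the mice, nor whether libraries of a group came from separate cultures, so p-values measure only the spread between these libraries.

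In glycolysis, glucose enters through transporters, is trapped by hexokinase, split into smaller sugars and converted to pyruvate. Pyruvate either becomes lactate through lactate dehydrogenase and leaves through monocarboxylate transporters, or enters the mitochondrion, where pyruvate dehydrogenase passes it to the TCA cycle. The pentose phosphate pathway branches from glucose 6-phosphate and makes NADPH and ribose. Activated T cells are known to raise glucose uptake and lactate output while they grow and divide, and resting T cells to rely more on mitochondrial oxidation.

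The start sites of several members were examined for the 5-letter core ACGTG, because it is shared by the sites of HIF-1, a factor known for driving glycolytic genes under low oxygen, and, within the E-box CACGTG, of MYC, known for driving them in dividing T cells. RefSeq promoters (GRCm38.p6) were matched by symbol for 41 of the 44 members, with Slc2a3, Idh3a and Me2 unmatched. On either strand, the 250 bases upstream of the start held ACGTG in 14 of the 41 members (34.1%) and in 5444 of 32851 listed promoters (16.6%). The 6-letter CACGTG, which holds ACGTG on each strand, was in 4 of the 41 members (9.76%) and in 6.02% of all listed promoters. These 6 windows are shown because the results turn on these genes: Ldha, Pgk1, Hk2 and Slc16a1 hold the core, and Gapdh and Pdk1 do not. They carry no annotated exon, read 5′ to 3′ in the direction of the gene, and capitals mark each ACGTG or its reverse complement CACGT.
Ldha (chr7:46845554-46845803, plus strand): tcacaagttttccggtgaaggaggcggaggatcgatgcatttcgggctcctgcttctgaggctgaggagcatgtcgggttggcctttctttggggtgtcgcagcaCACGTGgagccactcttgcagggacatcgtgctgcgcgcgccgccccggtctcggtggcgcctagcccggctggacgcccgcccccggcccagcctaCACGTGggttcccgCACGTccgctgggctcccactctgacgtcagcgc
Pgk1 (chrX:106186850-106187099, plus strand): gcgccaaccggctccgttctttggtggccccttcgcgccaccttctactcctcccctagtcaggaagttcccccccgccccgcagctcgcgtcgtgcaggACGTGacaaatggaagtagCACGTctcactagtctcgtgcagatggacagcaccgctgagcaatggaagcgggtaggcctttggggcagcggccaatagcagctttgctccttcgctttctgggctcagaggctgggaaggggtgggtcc
Hk2 (chr6:82774455-82774704, minus strand): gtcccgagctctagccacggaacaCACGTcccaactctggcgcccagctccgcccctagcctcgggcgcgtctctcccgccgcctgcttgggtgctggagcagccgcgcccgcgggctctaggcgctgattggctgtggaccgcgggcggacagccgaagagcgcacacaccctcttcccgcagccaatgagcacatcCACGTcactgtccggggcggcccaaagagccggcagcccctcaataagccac
Slc16a1 (chr3:104638414-104638663, plus strand): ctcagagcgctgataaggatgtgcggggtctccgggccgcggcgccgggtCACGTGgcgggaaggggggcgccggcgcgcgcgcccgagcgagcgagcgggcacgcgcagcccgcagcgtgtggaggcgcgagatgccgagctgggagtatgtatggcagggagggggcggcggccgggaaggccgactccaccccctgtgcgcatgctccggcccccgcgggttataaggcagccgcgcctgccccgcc
Gapdh (chr6:125165774-125166023, minus strand): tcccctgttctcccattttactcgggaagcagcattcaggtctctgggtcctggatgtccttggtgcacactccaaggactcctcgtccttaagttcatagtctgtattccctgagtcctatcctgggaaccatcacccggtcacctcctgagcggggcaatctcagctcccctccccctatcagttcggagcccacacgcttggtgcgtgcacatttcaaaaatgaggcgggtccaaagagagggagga
Pdk1 (chr2:71872974-71873223, plus strand): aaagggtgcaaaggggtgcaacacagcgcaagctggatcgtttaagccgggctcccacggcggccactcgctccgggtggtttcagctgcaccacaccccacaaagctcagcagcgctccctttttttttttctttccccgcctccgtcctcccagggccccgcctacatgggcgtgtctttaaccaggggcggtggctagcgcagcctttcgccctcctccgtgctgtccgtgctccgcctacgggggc
Ldha, the subunit that favours lactate formation, holds CACGTG and further copies of the core, and Slc16a1, a lactate exporter, holds CACGTG. The other members with CACGTG are Pfkm and Pfkfb3, which did not pass the test in the KLF2+ response below. Tpi1, Pkm and Eno1, which rose there, hold no core in their windows. A match is a description of letters in a window, and its absence from Gapdh or Pdk1 says only that these letters are not in this window.

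Read depth differed widely between libraries. The deposited table lists 33.9 to 45.6 M tags per library, but reads in exons ranged from 2.99 M in stimulated KLF2- replicate 4 to 36.6 M in stimulated KLF2+ replicate 2. Reads spread evenly over the genome, estimated from 1464 olfactory and vomeronasal receptor genes that T cells do not use, made up 0.401% to 20.1% of exon reads, with the highest share in stimulated KLF2- replicate 4. Each fold change is therefore given on counts scaled to library size (CPM) with TMM scaling and, where it bears on the call, on background-corrected counts scaled on well-expressed genes. Between the stimulated populations, the median over all genes was -0.19 on the log2 scale as counted, -0.47 after the correction and -1.39 with scaling on well-expressed genes alone. The summed TPM of 8 cell-division genes was 85.2 to 123 in unstimulated libraries, 1113 and 975 in stimulated KLF2+, 553 in stimulated KLF2- replicate 3 and 100.3 in stimulated KLF2- replicate 4, so the last stood at the unstimulated level. Myeloid marker genes (16, with Lyz2 leading) summed to 1075 and 1365 TPM in unstimulated KLF2+ libraries and to 33.9 to 98.3 TPM elsewhere, with at most 1 of the 16 at 0 reads in any library, while 12 T cell markers summed to 2944 to 4710 TPM in all 8 libraries. Marker sums of other cells ranged from 46.4 to 131 TPM for B cells, 7.01 to 35.8 TPM for NK cells, 7.55 to 27.7 TPM for CD8 T cells and 42.1 to 196 TPM for erythroid cells and platelets. Klf2 itself was higher in unstimulated KLF2+ than KLF2- cells by 2.69 on the log2 scale (edgeR adjusted p = 0.0045), in the direction of the sort.

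Per length, the members spanned a wide range of levels. Averaged over the 8 libraries, Ldha stood first at 943.7 TPM, followed by the enolase Eno1 at 875.5, Gapdh at 822.6, the pyruvate kinase Pkm at 619.2 and the aldolase Aldoa at 499.5 TPM. The first TCA cycle gene in this order was the mitochondrial malate dehydrogenase Mdh2 at 299.5 TPM. At the other end were Slc16a3 at 7.50, Hk2 at 5.15 and Rpia at 1.48 TPM. These levels carry uncertainty for genes with near-identical copies elsewhere in the genome, such as Gapdh, Eno1, Pgk1, Pgam1 and Ldha, because how reads were shared among copies is not given in the sources used here.

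**Figure D1:**
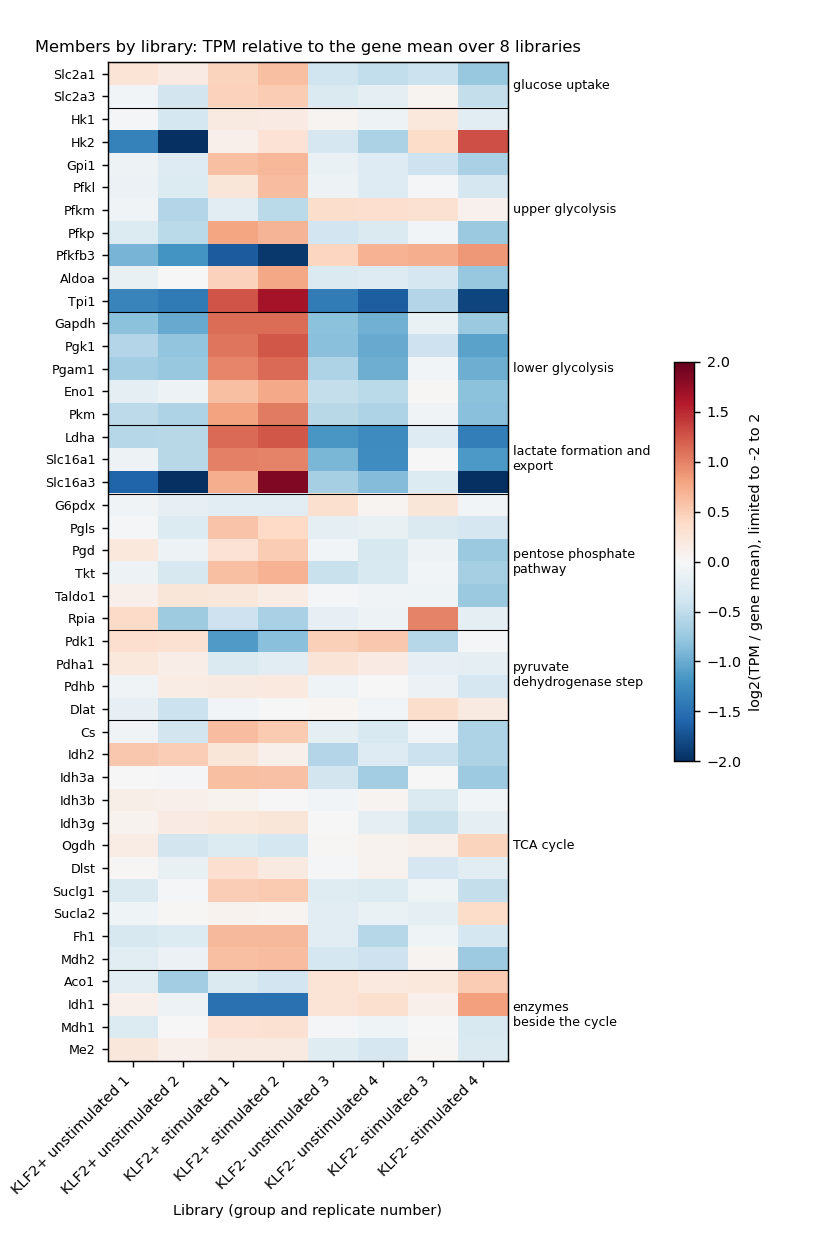
TPM of each of the 44 members in each of the 8 libraries, as log2 of its ratio to the gene's mean over the libraries, with members grouped by role (vertical axis) and libraries by group (horizontal axis). Lower glycolysis and lactate genes are red in the 2 stimulated KLF2+ libraries, whereas Pdk1, Pfkfb3 and Idh1 are blue there, and stimulated KLF2- replicate 4 looks unlike replicate 3.

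In KLF2+ cells, stimulation raised most of the glycolytic, lactate and TCA cycle genes and lowered Pdk1 and Idh1. Of 44 members 34 rose and 2 fell (edgeR, adjusted p under 0.05), beside 37.1% of all genes called, 19.7% higher and 17.4% lower. The members' median log2 fold change was 1.17, against -0.25 over all genes. On background-corrected counts 26 rose and 2 fell, with a median of 0.72 against -0.24, beside 12.7% of all genes called higher and 16.4% lower, and 28 members had the same call in both. In CPM, 40 members had both stimulated libraries above both unstimulated ones and 2 had both below, beside 35.2% and 40.1% of all genes. The 8 members without a call were Pfkm, Pfkfb3, G6pdx, Taldo1, Rpia, Pdha1, Idh2 and Ogdh. The median rise by role was 2.46 for lower glycolysis, 2.41 for lactate formation and export, 1.36 for upper glycolysis, 1.18 for glucose uptake, 0.99 for the TCA cycle, 0.85 for the pentose phosphate pathway, 0.74 for the enzymes beside the cycle and 0.52 for the pyruvate dehydrogenase step.

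Both glucose transporters rose. Slc2a1, which encodes GLUT1, had 77.0 and 98.7 CPM unstimulated and 163 and 184 CPM stimulated, a log2 fold change of 0.98 ± 0.23 (SE, adjusted p = 0.013), which lost its call on background-corrected counts (0.47 ± 0.16, adjusted p = 0.063). Slc2a3, encoding GLUT3, went from 47.1 and 52.5 to 126 and 132 CPM (1.37 ± 0.25, adjusted p = 0.0048). The stimulated libraries stood above the unstimulated ones for each transporter.

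All 5 lower glycolysis genes rose, and kept their call after the background correction. Gapdh, the enzyme that oxidises glyceraldehyde 3-phosphate, had 547.6 and 664.9 CPM without and 3927 and 3998 CPM with stimulation (2.71 ± 0.34, adjusted p = 0.0011). Pgk1, the first ATP-yielding kinase of the pathway, went from 124 and 149 to 737 and 836 CPM (2.53 ± 0.30, adjusted p = 0.00093), and Pgam1, the phosphoglycerate mutase, from 61.2 and 80.3 to 367 and 411 CPM (2.46 ± 0.35, adjusted p = 0.0017). In each case both stimulated libraries stood far above both unstimulated ones. Pkm, whose enzyme forms pyruvate, went from 870.0 and 1125 to 4089 and 4853 CPM (2.16 ± 0.37, adjusted p = 0.0038). Eno1 had the smallest rise of the 5, 1.49 ± 0.39 (adjusted p = 0.018).

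In upper glycolysis 7 of 9 genes rose, by unequal amounts. Tpi1, the triose phosphate isomerase, had the highest fold as counted, from 98.8 and 128 to 1112 and 1496 CPM (3.52 ± 0.45, adjusted p = 0.0012), and 3.00 ± 0.36 after correction. Hk2, the inducible hexokinase, went from 9.23 and 4.90 to 47.6 and 54.4 CPM (2.87 ± 0.35, adjusted p = 0.0010), while the more abundant Hk1 went from 194 and 212 to 417 and 421 CPM (1.05 ± 0.25, adjusted p = 0.013). Background made up 57.5% and 50.9% of the unstimulated Hk2 reads, and its corrected log2 fold change was 3.42 ± 0.51, above that of Tpi1. The glucose 6-phosphate isomerase Gpi1 went from 247 and 306 to 759 and 800 CPM (1.49 ± 0.24, adjusted p = 0.0030). Among the phosphofructokinases, which catalyse the committed step, Pfkp went from 217 and 248 to 845 and 797 CPM (1.82 ± 0.30, adjusted p = 0.0033) and Pfkl rose by 1.32 ± 0.25, whereas Pfkm did not pass the test (0.64 ± 0.27, adjusted p = 0.079). Aldoa rose by 1.36 ± 0.32. Pfkfb3, which makes the phosphofructokinase activator fructose 2,6-bisphosphate, had 34.7 and 39.8 CPM without and 39.0 and 32.9 CPM with stimulation, so its groups overlapped (-0.05 ± 0.20, adjusted p = 0.84). Its sign turned when stimulated KLF2+ replicate 2 was left out (0.067). After correction it was at -0.47 ± 0.17 (adjusted p = 0.069), and its TPM was 8.06 and 6.73 without and 4.85 and 4.03 with stimulation.

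Lactate formation and export rose in all 3 genes. Ldha went from 851.5 and 1192 to 5221 and 5667 CPM (2.41 ± 0.44, adjusted p = 0.0049). Its share of summed Ldha and Ldhb TPM, Ldhb being the subunit that favours the reverse reaction, was 96.3% and 95.5% unstimulated and 99.1% in each stimulated library. Slc16a1, encoding the monocarboxylate transporter MCT1, went from 51.4 and 51.8 to 208 and 210 CPM (2.02 ± 0.35, adjusted p = 0.0041). Slc16a3, encoding MCT4, the exporter known from glycolytic cells, had 5.07 and 4.64 CPM unstimulated and 47.7 and 105 CPM stimulated (3.98 ± 0.59, adjusted p = 0.0021). Its 2 stimulated libraries differed from each other by more than those of Slc16a1, and background made up 47.2% and 24.4% of its unstimulated reads.

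The pentose phosphate genes rose in 3 of 6 cases. Pgls, the lactonase, went from 39.7 and 46.2 to 113 and 102 CPM (1.32 ± 0.20, adjusted p = 0.0022), and Tkt, the transketolase of the non-oxidative branch, from 154 and 182 to 471 and 505 CPM (1.54 ± 0.28, adjusted p = 0.0049). Pgd, the second NADPH-making dehydrogenase, went from 106 and 118 to 210 and 248 CPM (1.03 ± 0.27, adjusted p = 0.019) and lost its call after the correction (adjusted p = 0.11). G6pdx, which encodes the enzyme that commits glucose 6-phosphate to the pathway, had 120.0 and 155 CPM without and 204 and 208 CPM with stimulation and did not pass (0.58 ± 0.24, adjusted p = 0.073), and its sign turned on the TPM scale. Taldo1, the transaldolase, did not pass either (0.66 ± 0.31, adjusted p = 0.11). Rpia, the ribose 5-phosphate isomerase, had 1.86 to 3.02 CPM over the 4 KLF2+ libraries, at 43.9% to 60.5% background unstimulated.

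At the pyruvate dehydrogenase step the kinase gene fell and 2 of 3 subunit genes rose, 1 of them also after the correction. Pdk1, which encodes a kinase that switches pyruvate dehydrogenase off, fell from 154 and 207 to 104 and 130 CPM (-0.63 ± 0.22, adjusted p = 0.048), and by 1.14 after the background correction (adjusted p = 0.0097). Its uncorrected call sat at the threshold. Dlat, the acetyltransferase subunit, went from 75.4 and 85.9 to 153 and 162 CPM (0.96 ± 0.20, adjusted p = 0.0081), and Pdhb from 118 and 190 to 264 and 270 CPM (0.79 ± 0.26, adjusted p = 0.040, 0.15 after correction). Pdha1 did not pass (0.24 ± 0.21, adjusted p = 0.36), with a sign that turned after correction (-0.28 ± 0.11, adjusted p = 0.098).

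In the TCA cycle 9 of 11 genes rose, and 6 after the correction. Fh1, fumarase, went from 58.1 and 82.0 to 211 and 215 CPM (1.60 ± 0.25, adjusted p = 0.0025), and Cs, citrate synthase, from 210 and 235 to 632 and 601 CPM (1.47 ± 0.27, adjusted p = 0.0051). Dlst, a subunit of 2-oxoglutarate dehydrogenase, went from 75.6 and 92.8 to 176 and 160 CPM (0.99 ± 0.19, adjusted p = 0.0059). In these genes no stimulated library overlapped an unstimulated one. Mdh2 rose by 1.44 ± 0.34, the succinate ligase subunits Suclg1 by 1.31 ± 0.29 and Sucla2 by 0.74 ± 0.23, and the NAD-linked isocitrate dehydrogenase subunits Idh3a by 1.27 ± 0.31, Idh3g by 0.77 ± 0.22 and Idh3b by 0.60 ± 0.20. Sucla2, Idh3g and Idh3b lost their call after the correction, and the sign of Idh3b turned on the TPM scale (-0.071). Idh2, the mitochondrial NADP-linked isocitrate dehydrogenase, did not pass, at 74.3 and 99.1 CPM without and 114 and 105 CPM with stimulation (0.34 ± 0.23, adjusted p = 0.25), and its sign turned after correction (-0.18). Ogdh did not pass either (0.47 ± 0.19, adjusted p = 0.075) and also changed sign (-0.065).

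Beside the cycle, Idh1 was the exception. Idh1, the cytosolic NADP-linked isocitrate dehydrogenase, fell from 59.7 and 71.4 to 37.0 and 37.6 CPM (-0.81 ± 0.21, adjusted p = 0.017, and -1.33 ± 0.26 after correction, adjusted p = 0.011). Its share of summed Idh1 and Idh2 TPM was 37.6% and 35.1% unstimulated and 19.6% and 21.2% stimulated. Aco1, the cytosolic aconitase that also binds iron-responsive RNA, went from 62.0 and 61.1 to 110 and 105 CPM (0.80 ± 0.17, adjusted p = 0.0086, 0.20 after correction). Mdh1, the cytosolic malate dehydrogenase, rose by 1.07 ± 0.28 (adjusted p = 0.019) and the malic enzyme Me2 by 0.69 ± 0.23 (adjusted p = 0.045, and 0.19 ± 0.14 with adjusted p = 0.33 after correction).

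Leaving out a single library put the number of members that rose at 16 (without unstimulated KLF2+ replicate 1), 19 (without stimulated KLF2+ replicate 2) or between 27 and 37 (without any other). Without unstimulated KLF2+ replicate 1, 18 calls were lost: Slc2a1, Hk1, Pfkl, Aldoa, Eno1, Ldha, Pgd, Tkt, Dlat, Pdhb, Idh3a, Idh3b, Idh3g, Suclg1, Sucla2, Mdh2, Mdh1 and Me2 (adjusted p = 0.051 to 0.23). Without stimulated KLF2+ replicate 2, 17 were lost: Slc2a1, Hk1, Pfkl, Aldoa, Eno1, Pgd, Dlat, Pdhb, Pdk1, Idh3a, Idh3b, Idh3g, Sucla2, Aco1, Idh1, Mdh1 and Me2 (adjusted p = 0.053 to 0.22). Without stimulated KLF2+ replicate 1, 8 were lost, Pdk1, Pdhb, Idh3b, Idh3g, Sucla2, Aco1, Idh1 and Me2, and without unstimulated KLF2+ replicate 2, Pdk1 (adjusted p = 0.20) and Idh1 (0.052). Leaving out an unstimulated KLF2- library, which enters only the spread, cost Pdk1, Pdhb, Idh3b, Idh3g, Sucla2, Mdh1 and Me2 their call, and replicate 4 also Eno1. Tpi1, Hk2, Gpi1, Pfkp, Gapdh, Pgk1, Pgam1, Pkm, Slc2a3, Slc16a1, Slc16a3, Pgls, Cs, Fh1 and Dlst kept theirs without any single library. Myeloid markers stood at 1075 and 1365 TPM in the unstimulated KLF2+ libraries and at 33.9 and 56.6 TPM in the stimulated ones, 14 of 16 of them falling, and their part in the members' response was not tested.

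**Figure D2:**
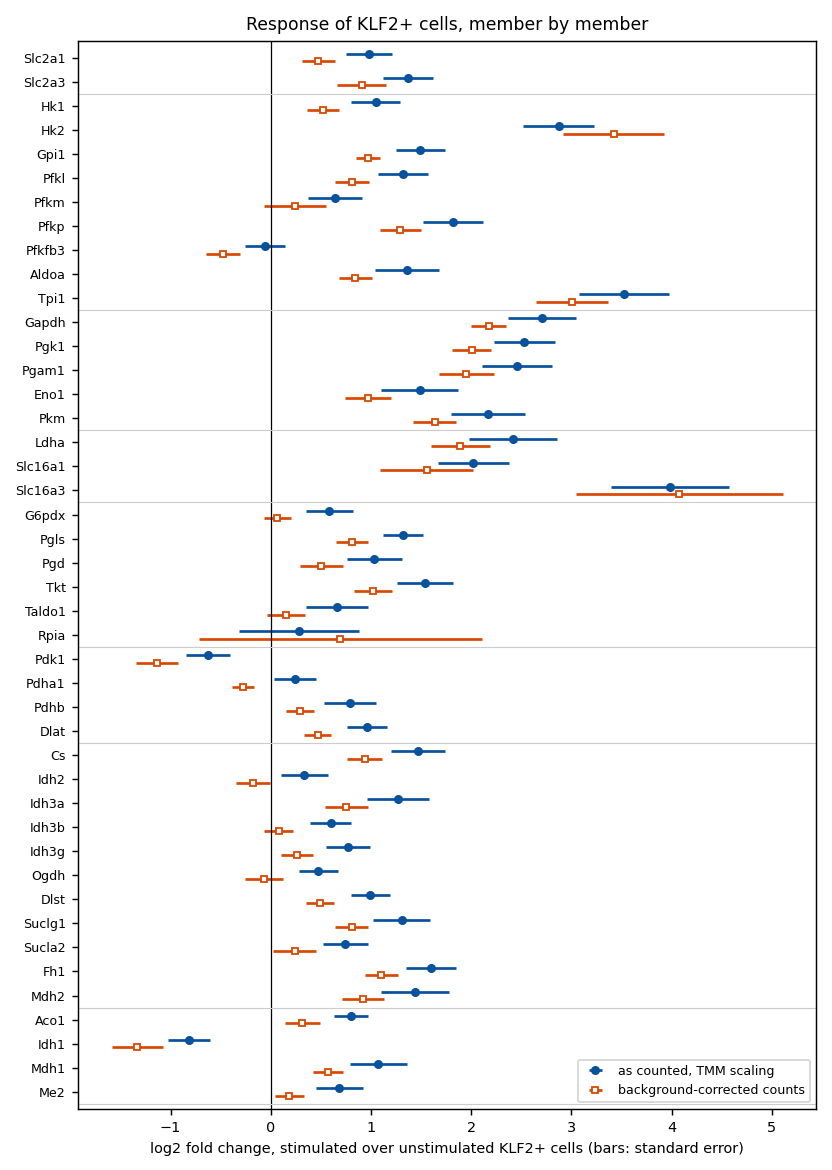
Log2 fold change of each member on stimulation of KLF2+ cells (horizontal axis), with standard errors over 2 against 2 libraries, on counts as deposited (filled circles) and after background correction (open squares). Tpi1, Slc16a3, Hk2 and the lower glycolysis genes lie farthest right, and Pdk1 and Idh1 lie left of 0 on each scale.

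Another 61 genes of these pathways were listed to complete the enzymes the members leave out. Of these, 25 rose and 4 fell in KLF2+ cells (12 and 4 of 54 after correction), with a median of 0.60. Over all genes 19.7% were called higher and 17.4% lower (12.7% and 16.4% after correction). In sugar transport and glycolysis 5 of 27 rose, a share near that of all genes. Among them were Slc2a6 (2.02 ± 0.42, adjusted p = 0.0080), a glucose transporter family member, and Bsg (1.48 ± 0.31, adjusted p = 0.0088), the chaperone of MCT1 and MCT4. In the TCA cycle and shuttles 10 of 16 rose, among them the aspartate aminotransferases Got2 (1.83 ± 0.22, adjusted p = 0.00092) and Got1 (1.73 ± 0.24, adjusted p = 0.0017). Pdk3, another pyruvate dehydrogenase kinase, rose by 1.65 ± 0.25 (adjusted p = 0.0023) while Pdk1 fell. Dera, a deoxyribose phosphate aldolase, rose by 1.44 ± 0.24 (adjusted p = 0.0032) among 5 of 8 ribose genes. The 4 that fell, Hk3 (-2.17 ± 0.41, adjusted p = 0.0057), Txnip, Tktl1 and Me3, are named because they are few. In the KLF2+ libraries background made up 35.4% to 81.9% of the Tktl1 reads and 27.9% to 100% of the Me3 reads. Hk3 is a hexokinase known from myeloid cells. Its TPM was 6.47 and 4.44 in unstimulated and 0.77 and 0.71 in stimulated KLF2+ libraries, and 4.59 to 8.19 in the KLF2- libraries. The summed myeloid markers above were high in the unstimulated KLF2+ libraries only, and their part in the fall of Hk3 was not tested.

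Ratios within a library do not depend on the scaling between libraries, and give a second view. Summed TPM of the 14 glycolysis members was 2.73 and 2.67 times that of the 11 TCA cycle members in unstimulated KLF2+ libraries and 4.62 and 5.22 times in stimulated ones. The corresponding ratios were 2.80 and 2.78 in unstimulated KLF2- libraries and 3.47 and 2.62 in stimulated KLF2- replicates 3 and 4. Stimulated KLF2+ libraries thus stood above the other 6, and only replicate 3 of the stimulated KLF2- pair stood above its unstimulated pair. Ldha over Cs was at 7.33 and 9.17 against 15.0 and 17.1 in KLF2+ cells, and at 5.30 and 5.39 against 9.06 and 6.07 in KLF2- cells, so both stimulated libraries stood above both unstimulated ones in each population. The pentose phosphate members relative to the TCA cycle went the other way, from 0.457 and 0.444 to 0.380 and 0.382 in KLF2+ cells, and from 0.476 and 0.471 to 0.441 and 0.368 in KLF2- cells. These are descriptions: with 2 libraries against 2, the smallest p an exact two-sided permutation test can give is 0.333.

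Isozyme shares also differed between populations and conditions. Hk2 made up 3.47% and 1.71% of hexokinase 1 and 2 TPM in unstimulated KLF2+ libraries and 6.39% and 5.84% in unstimulated KLF2- libraries. After stimulation it made up 7.91% and 8.88% in KLF2+ and 9.11% and 20.4% in KLF2- libraries. In KLF2- libraries Idh1 made up 59.3% and 54.6% of Idh1 plus Idh2 before and 53.9% and 68.8% after stimulation, above each KLF2+ library. Slc16a3 made up 15.0% and 13.7% of both lactate transporters in unstimulated KLF2+ and 37.2% and 39.3% in unstimulated KLF2- libraries. Stimulated KLF2+ libraries had 29.1% and 47.3%, and stimulated KLF2- libraries 29.3% and 18.2%. All isozyme shares here are of TPM without background correction. In stimulated KLF2- replicate 4 background made up 100% of the 9 Slc16a3 reads and 53.9% of the Slc16a1 reads. Of the unstimulated Hk2 reads it made up 57.5% and 50.9% in KLF2+ and 32.2% and 35.8% in KLF2- libraries. Pfkp led the phosphofructokinases in all 8 libraries, from 52.0% to 69.7% of their summed TPM.

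**Figure D3:**
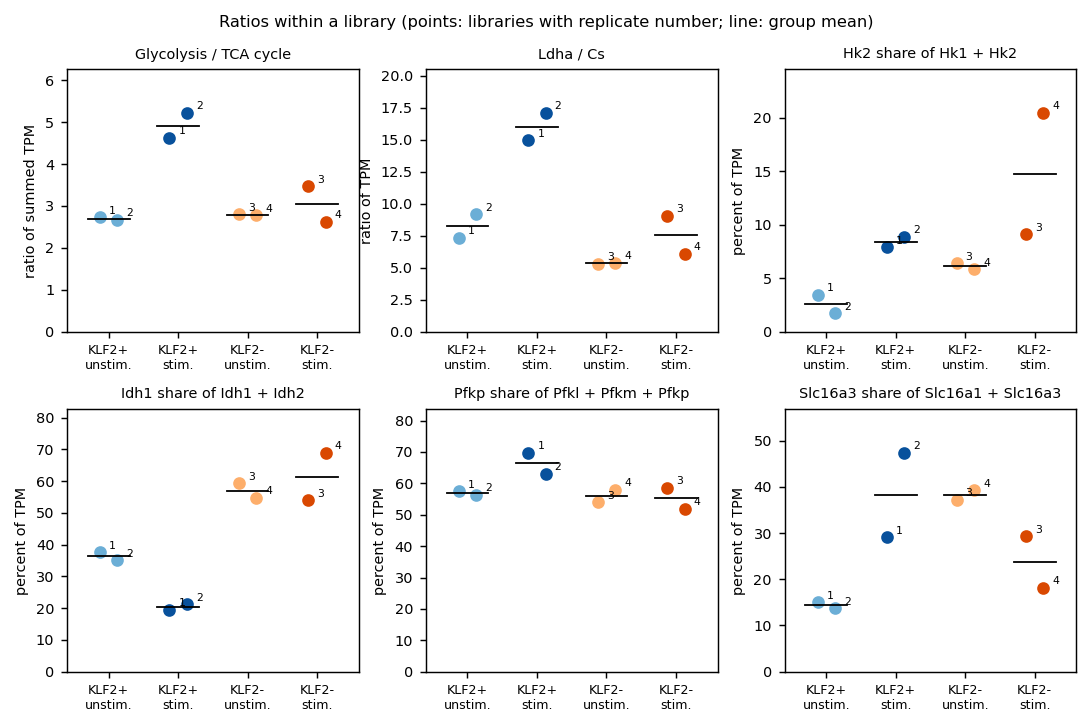
The 6 panels show ratios of TPM computed within each library (points, with replicate numbers) by group (horizontal axis), with the group mean as a line. The glycolysis to TCA cycle ratio is 4.62 and 5.22 in stimulated KLF2+ libraries and at most 3.47 elsewhere, and the Idh1 share is lowest there.

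In KLF2- cells no member passed edgeR's test on stimulation. The counts were 0 higher and 0 lower with edgeR, beside 0% of all 19146 genes called. An unadjusted p under 0.05 was reached by 8 of 44 members and by 2802 of the 19146 genes. DESeq2 called 1 member lower, Pdk1. The 2 stimulated libraries did not move together. In replicate 3, 26 of 44 members had TPM above both unstimulated KLF2- libraries and 12 below both, whereas in replicate 4, 8 were above and 33 below. Over all tested genes 59.4% were above and 25% below in replicate 3, and 68.5% above and 21.3% below in replicate 4. In each stimulated KLF2+ library 31 members were above both of their unstimulated libraries and 7 below, beside 19.3% and 19.4% of all genes above and 65.9% and 69.1% below in replicates 1 and 2.

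Member by member, the spread in stimulated KLF2- cells was wide. Gapdh had 491 and 461 CPM unstimulated and 675 and 367 CPM stimulated (0.13 ± 0.32, adjusted p = 0.82), and Ldha 509.7 and 493 against 813 and 306 CPM (0.16 ± 0.42, adjusted p = 0.83). Both signs turned without replicate 3, to -0.42 and -0.76. Hk2 had 16.7 and 14.0 against 23.1 and 36.4 CPM (0.95 ± 0.34, adjusted p = 0.28), with a background share of 29.0% to 35.8% in these 4 libraries. In CPM, Hk2 was 1 member of 44 with both stimulated libraries above both unstimulated ones. In CPM 21 had both below, beside 31.2% of all genes above and 30.2% below. On the TPM scale Gapdh, Pfkfb3, Dlat and Ogdh also had both stimulated libraries above. Pdk1 had 152 and 164 against 63.0 and 74.9 CPM (-1.20 ± 0.22, adjusted p = 0.27), so both stimulated libraries lay below both unstimulated ones.

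Other members also split between the stimulated KLF2- replicates, with replicate 4 below replicate 3. In CPM, both replicates of Cs, Slc2a1, G6pdx and Idh2 were below both unstimulated libraries. In TPM, replicate 3 was above both unstimulated libraries for Cs and between them for Slc2a1, G6pdx and Idh2. Pkm had 765 and 750 CPM unstimulated and 906 and 444 CPM stimulated, Pfkp 180.4 and 199 against 191 and 99.1 CPM, and Cs 174 and 166 against 163 and 91.5 CPM. Replicate 3 was near or above, and replicate 4 below, the unstimulated level. Slc2a1 had 43.6 and 42.2 against 36.3 and 24.0 CPM, and Slc2a3 36.1 and 40.1 against 38.9 and 22.2 CPM. Hk1 had 184 and 170.3 against 174 and 107 CPM, G6pdx 141 and 122 against 114 and 77.3 CPM, and Idh2 30.9 and 39.9 against 29.0 and 21.1 CPM. Background-corrected counts without replicate 4, a setting chosen after seeing the data, leave 1 stimulated library, so only fold changes are given. Ldha was higher by 0.96, Slc16a1 by 1.14 and Gapdh by 0.76 on the log2 scale, and Pdk1 was lower by 1.18. The median over all genes was 0.059 in this setting. Cell-division genes were at 553 TPM in replicate 3 and 100.3 TPM in replicate 4, and their part in the split was not tested.

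**Figure D4:**
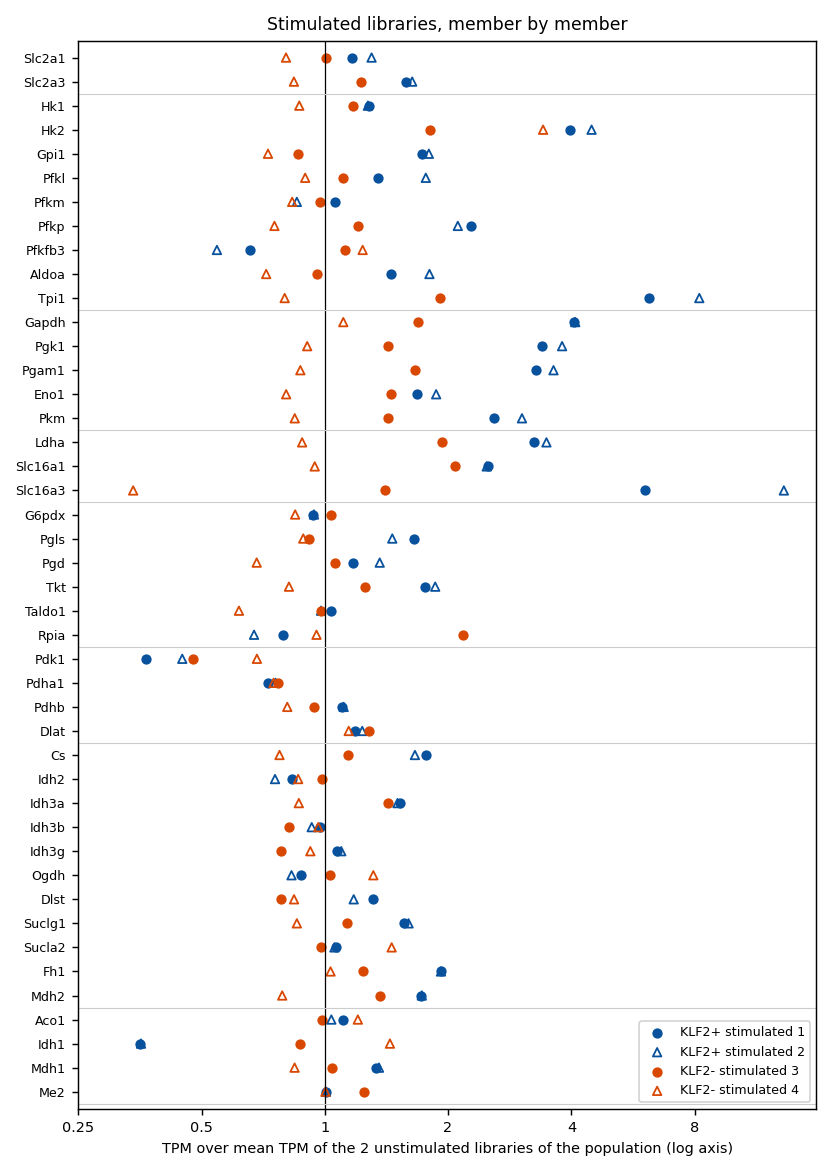
TPM of each member in each stimulated library divided by the mean TPM of the 2 unstimulated libraries of the same population (horizontal log axis), KLF2+ in blue and KLF2- in orange. The 2 blue symbols lie close together for most members, whereas KLF2- replicate 3 (filled) and replicate 4 (open) lie apart, with 26 and 8 of 44 members above both unstimulated libraries.

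The response differed between the populations for most members, and this count rested on single libraries. The interaction test called 36 of 44 members higher in the KLF2+ than in the KLF2- response and 0 lower (median difference 1.62, against -0.09 over all genes), beside 20.3% of all genes higher and 15.5% lower. On background-corrected counts 12 were higher and 1 lower, beside 3.58% and 8.24% of all genes, and the 12 were among the 36. Without unstimulated KLF2- replicate 3 or 4 the members' calls were all lost, as were nearly all calls over all genes. Calls over all genes also fell in the settings named next. Without unstimulated KLF2+ replicate 1 the count was 4 and without stimulated KLF2+ replicate 2 it was 14. Without stimulated KLF2- replicate 4 it was 27.

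The 12 members called on each scale were 4 of lower glycolysis, 4 of upper glycolysis, 3 of the TCA cycle and 1 of the pentose phosphate pathway. Tpi1 differed by 3.41 ± 0.60 (2.53 ± 0.49 after correction), Pgk1 by 2.65 ± 0.42 (1.74 ± 0.27), Gapdh by 2.58 ± 0.46 (1.63 ± 0.24), Pgam1 by 2.45 ± 0.48 (1.59 ± 0.39) and Pkm by 2.33 ± 0.51 (1.40 ± 0.29). Pfkp differed by 2.20 ± 0.42 (1.30 ± 0.28), Gpi1 by 2.20 ± 0.34 (1.27 ± 0.17) and Aldoa by 1.98 ± 0.45 (1.04 ± 0.23). Cs, Fh1 and Dlst differed by 1.89 ± 0.38, 1.78 ± 0.35 and 1.69 ± 0.27 (0.97, 0.89 and 0.82 after correction), and Pgls by 1.85 ± 0.28 (0.97 ± 0.23). The corrected values were all smaller than the uncorrected ones. Idh1 went the other way, at -0.60 ± 0.30 (adjusted p = 0.12) as counted and -1.57 ± 0.36 (adjusted p = 0.041) after correction. Ldha (2.25 ± 0.60), Slc16a3 (4.45 ± 0.81), Hk2 (1.92 ± 0.48), Slc2a1 (1.48 ± 0.33), Slc2a3 (1.68 ± 0.36) and Hk1 (1.38 ± 0.35) were called as counted and not after correction, with corrected adjusted p of 0.064, 0.069, 0.093, 0.089, 0.091 and 0.17. Pdk1 (0.57 ± 0.31, adjusted p = 0.16) and Idh2 (0.83 ± 0.34, adjusted p = 0.074) were among the 8 members not called, with Pfkfb3, Rpia, Ogdh, Sucla2, Idh1 and Me2.

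Without stimulation the populations differed in few members. Pfkfb3 was lower and Idh2 higher in KLF2+ than in KLF2- cells, 1 member in each direction beside 2.32% of all genes called, 1.07% higher and 1.25% lower, and both calls held after the background correction, beside 4.02% of all genes (0.974% higher and 3.05% lower). Pfkfb3 had 34.7 and 39.8 CPM in KLF2+ and 80.0 and 98.4 CPM in KLF2- cells (-1.26 ± 0.20, adjusted p = 0.012, -1.66 ± 0.17 after correction). Idh2 had 74.3 and 99.1 CPM in KLF2+ and 30.9 and 39.9 CPM in KLF2- cells (1.29 ± 0.24, adjusted p = 0.023, 1.00 ± 0.18 after correction). The populations did not overlap for either gene. Without unstimulated KLF2+ replicate 2 or either unstimulated KLF2- library the calls were lost, with adjusted p of 0.079 to 0.20 for Pfkfb3 and 0.15 to 0.39 for Idh2.

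In CPM, 34 members had both KLF2+ libraries above both KLF2- ones and 5 had both below, beside 26.2% and 32.8% of all genes. These counts depend on the scaling. After correction the median by role was 0.69 for lactate formation and export, 0.44 for glucose uptake and 0.24 for the pentose phosphate pathway. It was 0.16 for the TCA cycle, 0.12 for lower glycolysis and -0.021 for upper glycolysis. The pyruvate dehydrogenase step was at -0.065 and the enzymes beside the cycle at -0.13. Gapdh TPM was 465 and 411 against 465 and 423. The members next in size did not pass. Slc2a1 had 77.0 and 98.7 against 43.6 and 42.2 CPM (1.04 ± 0.23, adjusted p = 0.055), and was called higher by DESeq2 (1.15, adjusted p = 0.0042), which called 6 members higher. Ldha had 851.5 and 1192 against 509.7 and 493 CPM (1.03 ± 0.42, adjusted p = 0.23), and Hk2 had 9.23 and 4.90 against 16.7 and 14.0 CPM (-1.14 ± 0.35, adjusted p = 0.14). Slc16a1 had 51.4 and 51.8 against 26.3 and 21.7 CPM (1.11 ± 0.35, adjusted p = 0.15). Other members missed the threshold by more. Gapdh had an adjusted p of 0.55, Pkm 0.54, Pfkp 0.58, Cs 0.43, Slc2a3 0.40, Hk1 0.66, G6pdx 0.89 and Pdk1 0.63. The most abundant members of the other roles also missed the threshold, with adjusted p of 0.30 for Eno1, 0.31 for Taldo1, 0.34 for Pdhb and 0.52 for Mdh1. Slc2a6 was the single called gene of the 61 others, with 14.4 and 17.8 against 99.9 and 81.0 CPM (-2.49 ± 0.43, adjusted p = 0.017), and lost its call without any of the 4 unstimulated libraries (adjusted p = 0.055 to 0.18). Myeloid markers stood at 1075 and 1365 TPM in the KLF2+ and 46.0 and 54.0 TPM in the KLF2- libraries, 6 of 16 called higher and 1 lower, and their part in Idh2, Pfkfb3 and Slc2a6 was not tested. In bulk libraries fewer cells of a type and less RNA per cell cannot be told apart.

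**Figure D5:**
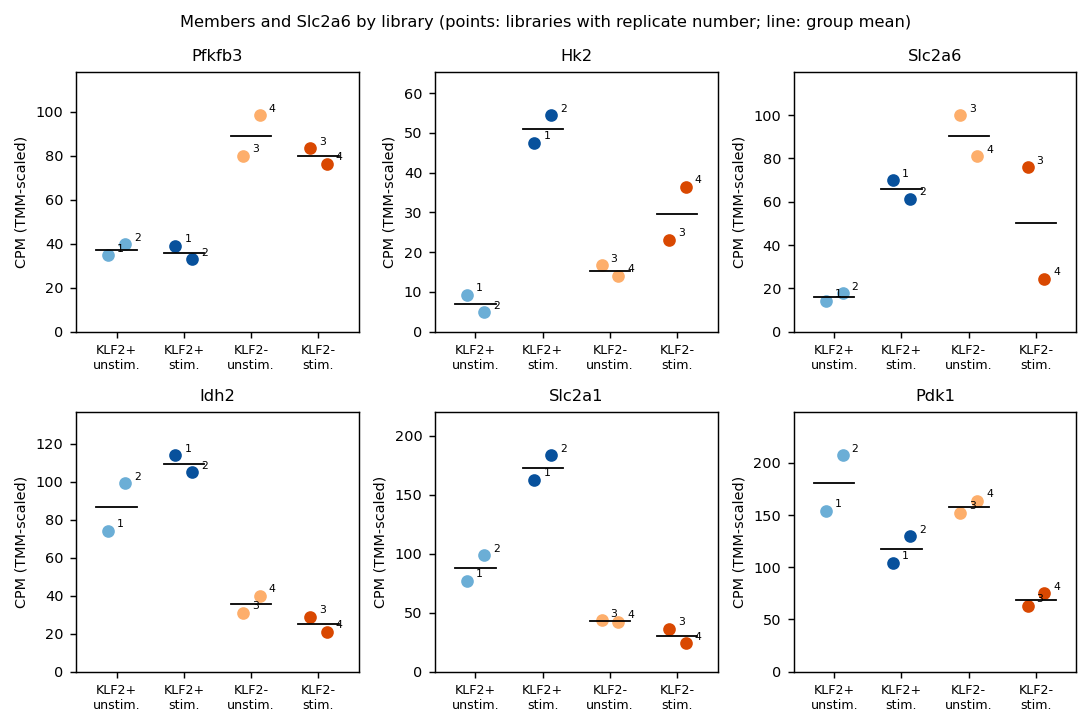
CPM of 5 members and of Slc2a6 in each library (points, with replicate numbers) by group (horizontal axis), with the group mean as a line. Pfkfb3 is 34.7 and 39.8 CPM in unstimulated KLF2+ and 80.0 and 98.4 CPM in unstimulated KLF2- libraries, and Idh2 is reversed.

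After stimulation KLF2+ cells had more transcript than KLF2- cells for most members, in a comparison where most genes differed. Of 44 members 40 were higher and 2 lower, beside 75.2% of all genes called, 35.5% higher and 39.7% lower. After the background correction 30 were higher and 2 lower, beside 16% and 38.6% of all genes, with 29 higher and 5 lower by limma on TPM. The median was 2.10 as counted and 0.96 corrected, against -0.19 and -0.47 over all genes. In CPM, 41 members had both KLF2+ libraries above both KLF2- ones and 2 had both below, beside 43.2% and 47.2% of all genes. All 12 T cell markers were also called higher as counted, with a median of 1.41, while their summed TPM was 3415 and 3664 in KLF2+ and 2944 and 3241 in KLF2- libraries.

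Pgk1 had 737 and 836 CPM in KLF2+ and 107 and 56.4 CPM in KLF2- cells (3.26 ± 0.32, adjusted p = 0.00023, corrected 2.03 ± 0.20), and Tpi1 1112 and 1496 against 126 and 43.6 CPM (3.94 ± 0.46, adjusted p = 0.00028, corrected 2.73 ± 0.36). Gapdh was higher by 2.93 ± 0.34 (corrected 1.65 ± 0.18) and Pgam1, at 72.9 and 31.8 CPM in KLF2- cells, by 2.89 ± 0.36 (corrected 1.70 ± 0.28). Both replicates of these genes lay far below KLF2+ cells, replicate 4 more so. Ldha was higher by 3.28 ± 0.46 (corrected 2.04 ± 0.29), and Slc16a1, at 41.9 and 15.7 CPM, by 2.85 ± 0.37 (corrected 2.01 ± 0.48). Slc16a3 had 9.73 and 1.96 CPM in KLF2- cells (3.67 ± 0.59), with all reads of replicate 4 at the background estimate. The lactate genes were therefore higher in KLF2+ cells on each scale.

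Glucose transporters and upper glycolysis followed. Slc2a1 was higher by 2.52 ± 0.25 (corrected 1.43 ± 0.17, adjusted p = 0.0015) and Slc2a3 by 2.07 ± 0.26 (corrected 1.12 ± 0.25). Gpi1 had 153 and 108 CPM in KLF2- cells (2.58 ± 0.25, corrected 1.32 ± 0.12), and Pfkp was higher by 2.50 ± 0.31 (corrected 1.28 ± 0.20). Hk2 and Rpia were not called (adjusted p = 0.052 and 0.71). Pfkfb3 was lower, at 39.0 and 32.9 CPM in KLF2+ and 83.4 and 76.5 CPM in KLF2- cells (-1.16 ± 0.20, adjusted p = 0.00093, corrected -2.36 ± 0.18), as it was without stimulation.

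In the pentose phosphate pathway Pgls had 25.4 and 20.5 CPM in KLF2- cells (2.22 ± 0.21, corrected 1.04 ± 0.17), Tkt 121 and 65.8 CPM (2.38 ± 0.29, corrected 1.18 ± 0.19) and Pgd 65.3 and 34.9 CPM (2.19 ± 0.29, corrected 1.01 ± 0.22). All 3 kept their call. Of the TCA cycle, Dlst had 45.2 and 40.3 CPM (1.97 ± 0.20, corrected 0.80 ± 0.14), Fh1 52.1 and 35.9 CPM (2.27 ± 0.26, corrected 1.05 ± 0.17) and Idh3g 71.5 and 70.1 CPM (1.99 ± 0.23, corrected 0.69 ± 0.16). Cs was higher by 2.28 ± 0.28 (corrected 1.04 ± 0.18) and Idh2 by 2.12 ± 0.25 (corrected 0.97 ± 0.18). Me2, at 117 and 78.2 CPM in KLF2- cells, was higher by 1.72 ± 0.24 (corrected 0.61 ± 0.14), Mdh1, at 195 and 131 CPM, by 1.86 ± 0.29 (corrected 0.58 ± 0.15) and Pdhb, at 87.4 and 62.3 CPM, by 1.83 ± 0.27 (corrected 0.57 ± 0.15). Idh1 was the second member called lower, at 37.0 and 37.6 against 45.3 and 62.3 CPM (-0.52 ± 0.21, adjusted p = 0.044, corrected -1.81 ± 0.26), and without stimulated KLF2- replicate 4 its uncorrected value was -0.27 (adjusted p = 0.27).

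For 8 members the call was higher as counted and the sign changed under another scaling or unit. Scaled on well-expressed genes, Pdk1 went from 0.76 to -0.45, Dlat from 1.14 to -0.042, Ogdh from 0.85 to -0.36, Aco1 from 0.75 to -0.45, G6pdx from 1.10 to -0.070 and Pfkm from 0.84 to -0.33. The first 5 were also negative after the background correction, without a call. Their adjusted p was 0.13 for Pdk1, 0.79 for Dlat, 0.087 for Ogdh, 0.075 for Aco1 and 0.40 for G6pdx. By limma on log2(TPM + 0.1), Pdk1 (-0.67), Ogdh (-0.59) and Aco1 (-0.69) were called lower, the opposite of their call as counted. Pfkm, at 42.9% background in stimulated KLF2- replicate 4, was at 0.034 (adjusted p = 0.93). Pdha1 (1.36 as counted) and Sucla2 (1.41) changed sign by limma on log2(TPM + 0.1), to -0.075 and -0.023. For these 8 the direction between the stimulated populations depended on the scaling or unit. Of the other pathway genes 32 were higher and 16 lower as counted, beside 35.5% and 39.7% of all genes. After the correction 15 and 12 of 54 were, beside 16% and 38.6% of all genes.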

How the data were processed

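RNA of 8 libraries was measured, 2 in each of 4 groups taken from the labels. The labels call it polyA but name a SMARTer stranded pico kit, a kind of kit made for total RNA, so the library type is uncertain. The members and gene lists were chosen with earlier results of these data known. The authors deposited estimated counts per gene over exons (not whole numbers, in steps of 0.5) and TPM values for the same genes, per the file headers. STAR 2.7.9, HOMER 4.11, SAMtools and DESeq2 and the build mm10 are named in the submitters' processing notes. Counting options, strand use and sharing of multi-mapping reads are not given in the sources used here, and the TPM columns sum to about the same total in each library. The stated kit marks strand, but overlapping or antisense genes cannot be told apart without the counting setting.

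Counts were rounded and fitted with edgeR 4.0.16 (R 4.3.3): filterByExpr, TMM, 1 fit over 4 groups with 4 residual degrees of freedom, quasi-likelihood F test, Benjamini-Hochberg adjustment over 19146 genes, and calls at 0.05. Standard errors were derived from the F statistic, as the fold change on the log2 scale over the root of F. CPM are TMM-scaled. Background-corrected counts subtract, per library, the read density over 1464 receptor genes times exon length, and take TMM factors from genes of at least 50 CPM (15292 genes kept). Alternatives were DESeq2 1.42.0, limma 3.58.1 on log2(TPM + 1) or log2(TPM + 0.1), no filter, other TMM factors, only the groups compared, a replicate block and leaving out each library. In simulated counts for the KLF2+ response over 19146 genes the fit recovered 19% of 100 genes changed by 1 and 79% of 100 changed by 2 on the log2 scale, with 13 false calls.

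All 44 members could be named. In each comparison and role the called members with the lowest p, at most 3 per role, have their values in each library, or the most abundant where none was called, 12 members were read in each comparison, and members that fell or differed in response were all named. From the other pathway genes up to 4 called ones per list were eligible. Promoters (RefSeq, GRCm38.p6) were searched over 250 bases.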

Additional observations from a re-analysis of the deposited data

Results flagged for a closer look

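For 36 members the response to stimulation was larger in KLF2+ than in KLF2- cells by edgeR's interaction test at an adjusted p under 0.05, beside 35.8% of all genes with a difference in either direction. On the log2 scale the difference was 1.48 for Slc2a1 and 1.68 for Slc2a3 among the glucose transporters. In upper glycolysis it was 1.38 for Hk1, 1.92 for Hk2, 2.20 for Gpi1, 1.68 for Pfkl, 1.15 for Pfkm, 2.20 for Pfkp, 1.98 for Aldoa and 3.41 for Tpi1. In lower glycolysis it was 2.58 for Gapdh, 2.65 for Pgk1, 2.45 for Pgam1, 1.66 for Eno1 and 2.33 for Pkm. For lactate formation and export it was 2.25 for Ldha, 1.74 for Slc16a1 and 4.45 for Slc16a3. The pentose phosphate genes had 1.04 for G6pdx, 1.85 for Pgls, 1.59 for Pgd, 1.85 for Tkt and 1.34 for Taldo1. The pyruvate dehydrogenase subunits had 1.02 for Pdha1, 1.36 for Pdhb and 1.06 for Dlat. In the TCA cycle it was 1.89 for Cs, 1.42 for Idh3a, 1.16 for Idh3b, 1.40 for Idh3g, 1.69 for Dlst, 1.68 for Suclg1, 1.78 for Fh1 and 1.68 for Mdh2. Beside the cycle it was 1.07 for Aco1 and 1.53 for Mdh1. On background-corrected counts 24 of these 36 calls were lost and 12 remained. Stimulated KLF2- replicate 4 had cell-division genes at 100.3 TPM, against 553 TPM in replicate 3. Its part in these differences was not tested beyond the fits without it, as counted and after the correction.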

How the results depend on the processing

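Depth limits the stimulated KLF2- pair most, with 4.53 M and 2.99 M exon reads and 11.4% and 20.1% background. Same-numbered libraries had deviations from their group means that correlated at 0.537 in KLF2+ and 0.0865 in KLF2- cells. The labels do not say whether the numbers mark pairs, so the main fit did not take them as pairs. The calls depend on this choice. With a replicate block 37 members rose and 2 fell in KLF2+ cells, and 39 differed in response. In KLF2- cells Hk2 rose (0.92, adjusted p = 0.036) and Pdk1 fell (-1.20, adjusted p = 0.0016), the 1 call in each direction, and Ldha was at -0.0048. Over all 19146 genes the block called 10851 in the KLF2+ response, 770 in the KLF2- response and 10857 for the difference. Without the block these numbers were 7096, 0 and 6855. Over the settings that leave out 1 library, the members that rose in KLF2+ cells numbered 16 to 37 and those that fell 0 to 2. In KLF2- cells they numbered 0 and 0. The members higher in the KLF2+ than in the KLF2- response numbered 0 to 40 and those lower 0 to 0. Between unstimulated populations 0 to 6 were higher and 0 to 2 lower, and between stimulated ones 39 to 41 were higher and 1 to 2 lower.

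In KLF2+ cells limma on log2(TPM + 1) called 19 higher, without a filter 18, and on log2(TPM + 0.1) 4 lower, DESeq2 and no filter called 1 lower, and correction without stimulated KLF2- replicate 4 (chosen after seeing the data) 4 lower. In KLF2- cells DESeq2 called 1 lower, and calls are not counted for that last setting, which leaves 1 stimulated library. Between unstimulated populations DESeq2, only the groups compared and that last setting each called 6 higher, no filter 2, and that last setting 3 lower. Between stimulated populations each limma setting called 5 lower, and DESeq2 and no filter 1. For the difference in response, TMM on well-expressed genes called 19 higher and 2 lower, the correction 12 and 1, the correction without replicate 4 10 and 1, and limma 16 and 2 (TPM + 0.1), 15 and 1 (TPM + 1) and 4 and 1 (no filter). All-gene calls in the KLF2+ response were 3771 higher and 3325 lower as counted, 2167 and 5667 with TMM on well-expressed genes and 1937 and 2510 after correction. For the difference they were 3890 and 2965, 1017 and 5102, and 547 and 1260.

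Signs that reversed are given for TMM on well-expressed genes, the correction, the correction without replicate 4, limma at TPM + 0.1, and limma at TPM + 1 with and without the filter. In the KLF2+ response Pdha1 was at -0.25, -0.28, -0.30, -0.43 and -0.42, Idh2 at -0.15, -0.18, -0.20, -0.33 and -0.33, and Ogdh at -0.041, -0.065, -0.084, -0.21 and -0.21. By limma alone G6pdx was at -0.089 and -0.088, Idh3b at -0.071 and -0.071, and Pfkm at -0.049 and -0.044. Rpia was at -0.26, -0.34 and -0.22 (well-expressed TMM and limma). Pfkfb3 was at 0.067 and 0.091 without stimulated replicate 2 and unstimulated replicate 2. Between stimulated populations Pdk1 was at -0.45, -0.42, -0.12, -0.67 and -0.64, Dlat at -0.042, -0.044, -0.13, -0.29 and -0.28, Ogdh at -0.36, -0.44, -0.22, -0.59 and -0.58, Aco1 at -0.45, -0.43, -0.28, -0.69 and -0.66, and G6pdx at -0.070, -0.15, -0.27, -0.31 and -0.30. Pfkm was at -0.33, -0.24 (correction without replicate 4), -0.57 and -0.50, and Rpia likewise at -0.86, -0.025, -0.87 and -0.57, with -0.22 to 1.16 when stimulated KLF2- replicate 4 or 3 was left out. Hk2 was at -0.45, -0.14 (correction), -0.62 and -0.56. By limma alone Pdha1 was at -0.075 and -0.074, and Sucla2 at -0.023 and -0.023. In the difference, by limma, Aco1 was at -0.0059 and -0.0093, G6pdx at -0.0013 and -0.0010, and Pdha1 at -0.031 and -0.031. In KLF2- cells leaving out 1 library put Gapdh at -0.42 (without stimulated replicate 3) to 0.50 (without stimulated replicate 4) and Ldha at -0.76 to 0.69 (likewise). The cause was not tested.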
